A study of Homo sapiens with 6 samples.

Results

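Aldo-keto reductases and aldehyde dehydrogenases, the enzymes that reduce and oxidise the carbonyl group of aldehydes, ketones, retinal, steroids and prostaglandins, were examined in HT-29 xenograft tumours. The set consisted of 10 genes chosen by symbol: AKR1A1, AKR1B1, AKR1B10, AKR1C1, AKR1C2, AKR1C3, ALDH1A1, ALDH1A3, ALDH3A1 and ALDH3A2. All 10 had rows in the transcript table, out of 29385 annotated genes, and together they held 69 of its 116485 annotated transcripts. The rule used symbols alone and no measured value.

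HT-29 cells come from an established line of human colorectal cancer, and xenografts are tumours that such cells form after transplantation into a host animal. RNA was sequenced from 3 samples of the group treated with extracorporeal shock waves (ESV), pressure pulses given from outside the body, at 60 mJ, and from 3 untreated controls, with both groups taken at day 15. All 6 samples carry the same cell line, wild-type genotype and batch label. The series is titled as a study of tumour proliferation and growth, and the comparison asks which transcripts differ in level between treated and untreated tumours. Each sample is called a tumour here. The labels do not say whether separate animals were used, so the p-values reflect the spread among these samples alone, which may be technical, and all 6 come from 1 cell line.

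Aldo-keto reductases use NADPH to turn aldehydes and ketones into alcohols, and aldehyde dehydrogenases use NAD+ or NADP+ to turn aldehydes into carboxylic acids. In intestinal epithelium both families clear reactive aldehydes from food and from lipid peroxidation, and they act against each other on retinal, which one family returns to retinol and the other commits to retinoic acid. Several AKR1 genes are known targets of NRF2, the transcription factor of the antioxidant response, and ALDH1A1 is widely used as a marker of stem-like cells in colorectal tumours.

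Levels are given as FPKM, the number of fragments divided by transcript length in kilobases and by library size in units of 1000000 reads, summed over the transcripts of a gene. The shock wave libraries held 55200000, 55230000 and 58540000 reads, against 52170000, 55490000 and 48300000 in the control libraries. Shock wave tumour 3 stood apart from the other 5 libraries. Its summed FPKM was 571671, against 478228 to 512605 in the others, and relative to the mean of the 6 libraries its log2 levels had a slope of -0.178 for each doubling in transcript length. The slopes of the other 5 libraries lay between -0.050 and 0.068. The changes of AKR1A1, AKR1C3 and the related gene TXN, all highest in this tumour, are given with and without it. So are the sums of the 10 genes, the AKR1A1 coding transcripts, the aldo-keto reductase family and the colorectal epithelium markers. Of the 28 related genes named further on, 9 were highest and 8 were lowest in this tumour.

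The AKR1C genes lie side by side on chromosome 10 and are nearly the same in sequence, which limits how far reads can tell them apart. The coding sequences of AKR1C1, AKR1C2 and AKR1C3 are each 969 bases long in GENCODE release 29. AKR1C1 and AKR1C2 are 98% identical over these bases, with 19 differences. AKR1C3 is 91.4% identical to AKR1C1, with 83 differences, and 91% identical to AKR1C2, with 87. The stretch of 75 coding bases within 1 exon where AKR1C1 and AKR1C2 differ most is shown here because such positions can separate reads from their coding parts. It is coding bases 88 to 162, in exon 2, and holds 10 of the 19 differences. On hg38 it lies at chr10:4965917-4965991 on the plus strand for AKR1C1, chr10:5001604-5001678 on the minus strand for AKR1C2 and chr10:5096413-5096487 on the plus strand for AKR1C3. Each is written 5′ to 3′ along its gene, and capitals mark the positions where the 3 genes are not all the same.
AKR1C1: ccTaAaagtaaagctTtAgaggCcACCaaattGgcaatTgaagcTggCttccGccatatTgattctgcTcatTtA
AKR1C2: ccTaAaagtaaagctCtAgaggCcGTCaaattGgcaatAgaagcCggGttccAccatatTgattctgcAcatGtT
AKR1C3: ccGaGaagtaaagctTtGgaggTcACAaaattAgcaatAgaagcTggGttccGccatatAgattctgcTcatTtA
Outside such stretches the genes share long runs. Of all 50-base windows of the AKR1C1 coding transcript, 28.3% occur unchanged in that of AKR1C2, and of all 100-base windows 17.2% do. These windows cover the whole transcript of 6705 bases, most of it outside the coding bases. The share of windows of the shorter AKR1C2 transcript found in AKR1C1 was not computed. The shares of AKR1C1 windows found in AKR1C3 are 2.03% at 50 bases and 0.288% at 100 bases. Values of AKR1C1 and AKR1C2 are therefore uncertain relative to each other, since how the authors' pipeline placed shared reads is not given in the sources used here. The other related pairs do not share such runs: the coding sequences of ALDH1A1 and ALDH1A3 are 69.5% identical, those of ALDH3A1 and ALDH3A2 are 68.7% identical, and 0% of their 50-base windows are shared.

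The promoters show the same kinship. RefSeq promoters (GRCh38.p14, 250 bases before to 50 after a start site) were found for 8 of the 10 genes, in 11 entries, with none for AKR1B10 and ALDH3A1. The antioxidant response element core, TGACNNNGC on either strand, the binding sequence of NRF2, was found in 0 of the 11 windows, and 13.3% of all 34796 promoters hold it. TATAAA on either strand occurred in 1 entry of AKR1C3, and 11.6% of all promoters hold it. CCAAT on either strand, the binding sequence of the NF-Y factor, was found in 9 of the 11 entries, from 7 of the 8 genes, and in 34.6% of all promoters. Within a window no matches overlapped. The AKR1B1 matches at -98 in 1 entry and at 41 in the other are the same bases, because these entries overlap. The entry count therefore holds that site more than once, and a match is only a run of letters. Bases -110 to -31 from the start site are shown for the 3 AKR1C genes, because 2 of them share nearly the whole window, and for ALDH1A1 and AKR1A1, the most abundant genes of the set. Each runs 5′ to 3′ along the gene, and capitals mark CCAAT or its reverse complement ATTGG.
AKR1C1 (chr10:4963305-4963384, plus strand): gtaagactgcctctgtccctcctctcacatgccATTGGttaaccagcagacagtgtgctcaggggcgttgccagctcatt
AKR1C2 (chr10:5003888-5003967, minus strand): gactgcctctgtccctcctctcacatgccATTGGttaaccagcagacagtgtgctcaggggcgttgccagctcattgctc
AKR1C3 (chr10:5094304-5094383, plus strand): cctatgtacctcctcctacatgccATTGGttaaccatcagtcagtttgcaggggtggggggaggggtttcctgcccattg
ALDH1A1 (chr9:72953084-72953163, minus strand): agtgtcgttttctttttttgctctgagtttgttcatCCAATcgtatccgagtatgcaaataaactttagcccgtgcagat
AKR1A1 (chr1:45550716-45550795, plus strand): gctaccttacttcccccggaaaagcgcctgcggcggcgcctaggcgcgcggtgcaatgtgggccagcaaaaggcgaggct
AKR1C1 and AKR1C2 share a run of 76 of these 80 bases, and each shares at most 19 consecutive bases with this AKR1C3 window. AKR1A1 is the only one of the 8 genes with no CCAAT in its full promoter window.

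None of the 10 genes passed the test between shock wave and control tumours. Of the set, 8 genes reached 1 FPKM in at least 3 tumours and were tested with limma on log2(FPKM + 1), while AKR1C2 and AKR1B1 did not reach that level. With Benjamini-Hochberg adjustment over all 13451 genes tested, 0 of the 8 passed an adjusted p of 0.05, the smallest adjusted p of the set was 0.648, and the background was 0% of all genes. At an unadjusted limma p under 0.05 there was 1 gene of the set, AKR1C3, against 6.94% of all genes (933). The 3 shock wave values lay above the 3 control values for AKR1A1 and AKR1C3, 2 of the 8, and for 7.75% of all genes. No gene of the set lay wholly below the controls, against 8.68% of all genes. The fitted log2 change was positive in 7 of the 8 tested genes, with a median of 0.17, and the median over all genes was -0.01 with 48.4% positive. Together the 10 genes summed to 223.9, 254.2 and 279.6 FPKM in the shock wave tumours, against 202.2, 237.7 and 199.6 FPKM in the controls, and the 2 groups overlapped. The mean sum was 252.6 FPKM in shock wave tumours (239.1 without tumour 3) and 213.2 FPKM in controls.

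**Figure D1:**
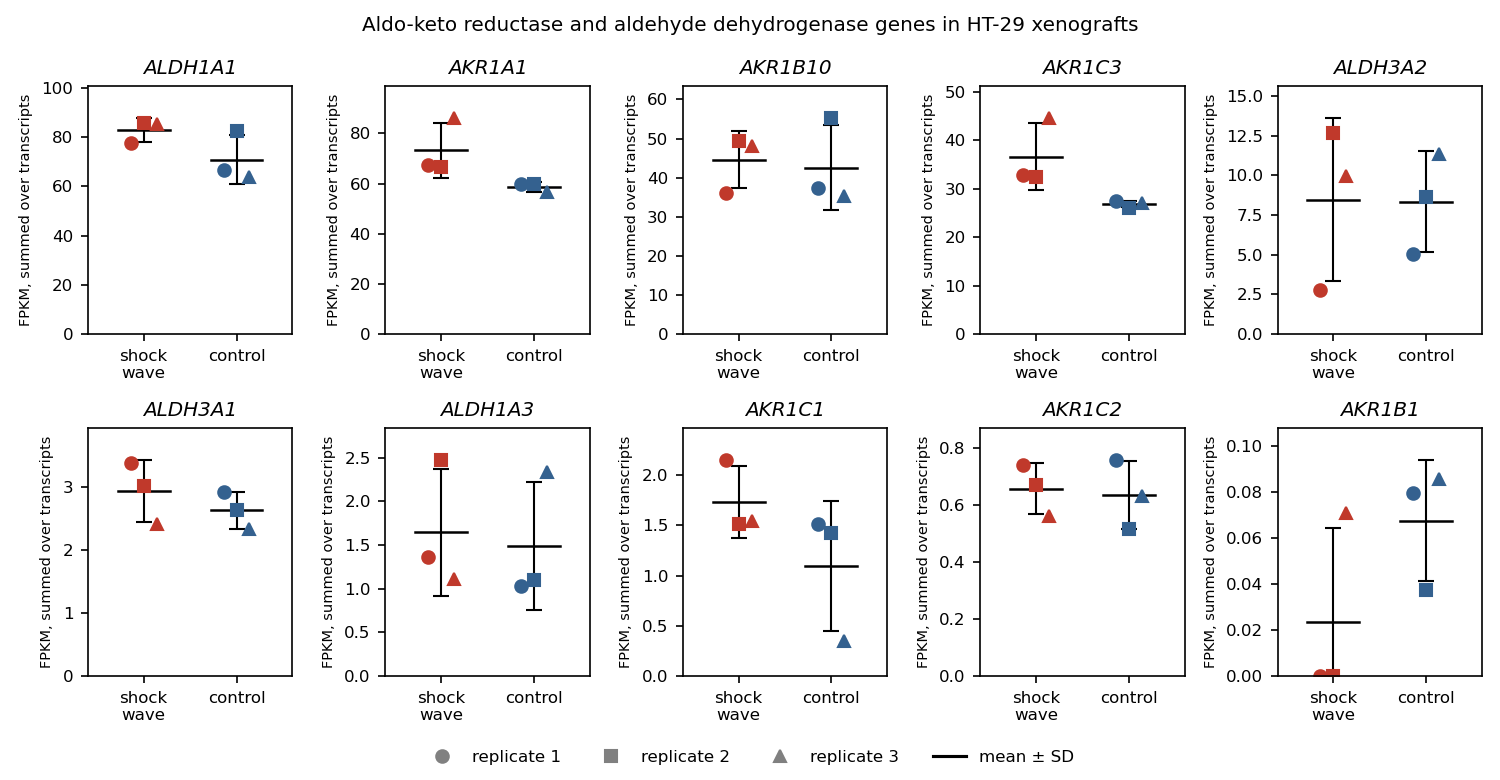
FPKM of each of the 10 genes (y axis, starting at 0 and scaled to each gene) in shock wave tumours (left) and control tumours (right), 1 point per tumour with the mean and SD, n = 3 each. All 3 shock wave points of AKR1A1 and AKR1C3 lie above the 3 control points, and the groups of the other 8 genes overlap.

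The order of the genes by level was largely the same from tumour to tumour. ALDH1A1 and AKR1A1 led, followed by AKR1B10 and AKR1C3, all with group means between 26.8 and 82.8 FPKM. The others were far lower, with ALDH3A2 at 8.41 FPKM over the 6 tumours, ALDH3A1 at 2.78, ALDH1A3 at 1.57, AKR1C1 at 1.42, AKR1C2 at 0.648 and AKR1B1 at 0.0456. The ranges of neighbours in this order were separate between AKR1A1 and AKR1B10, between AKR1C3 and ALDH3A2, and between AKR1C2 and AKR1B1. The other 6 neighbouring pairs overlapped in range. ALDH1A3 was the higher of ALDH1A3 and AKR1C1 in 2 of 6 tumours, so those 2 genes could not be ordered.

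Among the genes that oxidise retinal to retinoic acid, ALDH1A1 was abundant and ALDH1A3 was near the detection filter. ALDH1A1 (ENSG00000165092, minus strand of chromosome 9, 72900662 to 72953056) had 77.4, 85.8 and 85.3 FPKM in the shock wave tumours, against 66.4, 82.3 and 63.7 FPKM in the controls. Only control tumour 2 reached the shock wave range, and it stood above shock wave tumour 1. The means were 82.8 ± 4.74 FPKM in shock wave and 70.8 ± 10.1 FPKM in control tumours (SD, n = 3 each), a log2 change of 0.23 with a standard error of 0.14, and the limma adjusted p was 0.648. The 95% interval of that change ran from -0.10 to 0.56, and with each library scaled to the same sum the change was 0.12. Nearly all of ALDH1A1 sat on 1 coding transcript, ENST00000297785, with shares of 99.3% of the gene's FPKM in each shock wave tumour and 97.8 to 99.3% in the controls.

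ALDH1A3 (ENSG00000184254, plus strand of chromosome 15, 100877714 to 100916626), the other retinal dehydrogenase of the set, had 1.36, 2.47 and 1.11 FPKM in the shock wave tumours, against 1.03, 1.10 and 2.33 FPKM in the controls. In each group 1 tumour stood well above the other 2, so the groups covered nearly the same range. The log2 change was 0.09 with a standard error of 0.29, and it turned negative, to -0.12, without shock wave tumour 2. The leading coding transcript ENST00000329841 held 87.0, 89.8 and 32.7% of the gene in the shock wave tumours, against 69.5, 76.6 and 80.5% in the controls. The 32.7% in shock wave tumour 3 rests on few reads on short transcripts. There the retained intron ENST00000558869, 586 bases long, held 47.4% on 18 reads, and ENST00000561338 held 13.5% on 5 reads. The leading transcript had 83 reads and 0.361 FPKM in that tumour.

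The aldo-keto reductases of the AKR1B branch work in the opposite direction. AKR1B10 reduces retinal and dietary aldehydes and is characteristic of gut epithelium, and AKR1B1, aldose reductase, turns glucose into sorbitol. AKR1B10 (ENSG00000198074, plus strand of chromosome 7, 134527592 to 134541408) had 36.1, 49.2 and 48.2 FPKM in the shock wave tumours, against 37.3, 55.2 and 35.2 FPKM in the controls. The highest and the lowest tumour were both controls. The log2 change was 0.08 with a standard error of 0.21 and a 95% interval from -0.43 to 0.59, and its sign turned to -0.04 when each library was scaled to the same sum and also without control tumour 3. Over 95% of the gene (95.4 to 98.6%) lay on the coding transcript ENST00000359579 in each tumour.

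AKR1B1 (ENSG00000085662, minus strand of chromosome 7, 134442387 to 134459102) was listed through 1 transcript, ENST00000465351, which GENCODE release 29 calls a retained intron. That is 1 of 14 transcripts of the gene in that annotation, and the 1 coding transcript was not analysed here, so the values below are not the level of the coding mRNA. This transcript had 0, 0 and 0.0708 FPKM in the shock wave tumours, against 0.0795, 0.0374 and 0.0858 FPKM in the controls. The recovered reads behind these values were 0, 0 and 8 in the shock wave tumours, against 8, 4 and 8 in the controls. A count of 0 allows up to 3 reads, or 0.0282 FPKM in shock wave tumour 1 and 0.0281 FPKM in shock wave tumour 2, counting error only, and no fold is given.

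AKR1A1, the general aldehyde reductase that also acts on glucuronate, was higher in each shock wave tumour than in the controls but did not pass. AKR1A1 (ENSG00000117448, plus strand of chromosome 1, 45550543 to 45570049) had 67.2, 66.4 and 86.0 FPKM in the shock wave tumours, against 59.7, 59.9 and 56.4 FPKM in the controls. The controls lay close together, with a coefficient of variation of 3.32%, and the shock wave group was spread at 15.1% because of tumour 3. Its means were 73.2 ± 11.1 FPKM in shock wave and 58.7 ± 1.95 FPKM in control tumours, a log2 change of 0.30 with a standard error of 0.14 and a 95% interval from -0.02 to 0.63. The limma p was 0.0635 before and 0.648 after adjustment over all genes. Without shock wave tumour 3 the log2 change was 0.18, and with a trend on transcript length removed from each library it was 0.24.

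Of the AKR1A1 transcripts tested, the leading coding one was the only one whose groups did not overlap. ENST00000621846, 1360 bases long, had 33.2, 26.3 and 41.9 FPKM in the shock wave tumours, against 23.8, 19.9 and 24.3 FPKM in the controls. Its log2 change was 0.54 with a standard error of 0.22, and 0.38 without shock wave tumour 3. The limma p of 0.0471 became 0.752 after adjustment over the 28517 transcripts tested. The other 11 transcripts of AKR1A1 summed to 34.0, 40.1 and 44.1 FPKM in the shock wave tumours, against 35.9, 40.0 and 32.2 FPKM in the controls, and these groups overlapped. As a share of the gene, ENST00000621846 held 45.9 ± 5.45% in shock wave and 38.7 ± 5.00% in control tumours, a difference of 7.23 percentage points that an exact two-sided permutation test did not separate (p = 0.3, adjusted p = 0.8 over 8 genes, where the smallest possible p is 0.1).

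Several minor transcripts of AKR1A1 had high values in some tumours and very low values in others. They overlap on the genome, and how shared reads were placed was not tested. The noncoding ENST00000476957 had 0, 6.84 and 0 FPKM in the shock wave tumours, against 6.74, 11.03 and 2.25 FPKM in the controls. The coding ENST00000434299 had 12.1, 1.62 and 6.06 FPKM in the shock wave tumours, against 0.662, 5.47 and 2.05 FPKM in the controls. In shock wave tumours 1 and 3 the noncoding form was at 0 while the coding form was at its 2 highest values. These 2 transcripts, named after their values were seen, had limma adjusted p of 0.760 and 0.778. Over all 5 coding transcripts AKR1A1 summed to 61.7, 54.8 and 76.3 FPKM in the shock wave tumours, against 47.5, 45.5 and 50.9 FPKM in the controls, again without overlap. The mean of those sums was 64.3 FPKM in shock wave tumours (58.3 without tumour 3) and 47.95 FPKM in controls.

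AKR1C3 had the smallest p of the set. It makes androgens and prostaglandin F, and it reduces many other ketones. AKR1C3 (ENSG00000196139, plus strand of chromosome 10, 5093793 to 5107686) had 32.8, 32.4 and 44.5 FPKM in the shock wave tumours, against 27.4, 26.01 and 27.1 FPKM in the controls. Every shock wave value was above the controls, shock wave tumour 3 was the highest, and the controls differed among themselves by a coefficient of variation of 2.68%. Means were 36.6 ± 6.87 FPKM in shock wave and 26.8 ± 0.718 FPKM in control tumours, a log2 change of 0.42 with a standard error of 0.16 and a 95% interval from 0.05 to 0.79. The limma p was 0.0314 and 0.648 after adjustment over all genes. Without shock wave tumour 3 the log2 change was 0.27, and with the length trend removed 0.41.

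The same difference stood in the 1 coding transcript of AKR1C3 in the table. ENST00000380554 held 97.2 to 98.2% of the gene in the shock wave tumours and 95.5 to 98.3% in the controls. This transcript had 31.9, 31.7 and 43.7 FPKM in the shock wave tumours, against 26.1, 25.6 and 26.4 FPKM in the controls. The reads on it were 3179, 3167 and 4622 in the shock wave tumours, against 2464, 2564 and 2301 in the controls. Without shock wave tumour 3 the log2 change of this transcript was 0.28, against 0.43 with it.

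The other AKR1C genes, which inactivate progesterone (AKR1C1) and dihydrotestosterone (AKR1C2), were at low levels. AKR1C1 (ENSG00000187134, plus strand of chromosome 10, 4963253 to 4983283) had 2.15, 1.51 and 1.54 FPKM in the shock wave tumours, against 1.52, 1.43 and 0.350 FPKM in the controls. Control tumour 3 was far below the other 5, and control tumour 1 was level with shock wave tumours 2 and 3. The log2 change was 0.43 with a standard error of 0.28 and a limma adjusted p of 0.653, and without control tumour 3 it was 0.14. It was 0.99 with voom on the recovered reads, 0.81 with a pseudocount of 0.1 and 0.65 with the length trend removed, and the groups did not overlap under voom, the length correction, quantile normalization and upper quartile scaling. The limma adjusted p was between 0.480 and 0.872 under all alternatives. Its coding transcript ENST00000380872 alone had 1.81, 1.42 and 1.33 FPKM in the shock wave tumours, against 1.16, 1.27 and 0.306 FPKM in the controls, which do not overlap, with a limma adjusted p of 0.773.

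Transcript length matters for comparing these 3 genes. The annotated AKR1C1 coding transcript is 6705 bases long and that of AKR1C2 3756, against 1807 for AKR1C3, and FPKM divides by these lengths. On recovered reads AKR1C1 had 695, 536 and 552 in the shock wave tumours, against 423, 480 and 102 in the controls. AKR1C2 (ENSG00000151632, minus strand of chromosome 10, 4987400 to 5015048) had 0.743, 0.670 and 0.563 FPKM in the shock wave tumours, against 0.758, 0.518 and 0.634 FPKM in the controls. The reads behind these levels numbered 154, 103 and 112 for the shock wave tumours and 97, 108 and 115 for the controls, and the groups covered nearly the same range. That sum is not the level of the coding mRNA. The coding transcript ENST00000380753 had 0.743, 0.0868 and 0.382 FPKM in the shock wave tumours, against 0.362, 0.518 and 0.634 FPKM in the controls. The retained intron ENST00000460124 held 0, 87.0 and 32.2% of the gene in the shock wave tumours, against 19.2, 0 and 0% in the controls. In control tumour 1 the noncoding ENST00000604439 held 33.0% on 6 reads. AKR1C2 was not tested, and 3 of its 10 transcripts in GENCODE release 29 were in the table.

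ALDH3A2, which oxidises long-chain fatty aldehydes in the endoplasmic reticulum, varied most between tumours among the 8 tested genes, with a root mean square deviation of log2(FPKM + 1) of 0.652, against 0.136 to 0.376 for the other 7. ALDH3A2 (ENSG00000072210, plus strand of chromosome 17, 19648136 to 19677598) had 2.77, 12.7 and 9.97 FPKM in the shock wave tumours, against 5.03, 8.61 and 11.4 FPKM in the controls. The lowest and the highest tumour both belonged to the shock wave group. The log2 change was -0.11 with a standard error of 0.52 and a 95% interval from -1.34 to 1.11, so changes of over 2-fold in either direction lie within it. It was 0.45 without shock wave tumour 1 and -0.48 without shock wave tumour 2.

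The most abundant transcript of ALDH3A2 was noncoding, and its listed values were either high or very low. It overlaps coding transcripts of the gene, and how shared reads were placed was not tested. ENST00000573505, a single-exon retained intron of 3512 bases at chr17:19674084-19677595, ends close to the 3′ end of the coding transcripts. It had 0.227, 7.80 and 7.18 FPKM in the shock wave tumours, against 0.377, 0.113 and 7.82 FPKM in the controls. Shock wave tumours 2 and 3 and control tumour 3 were high and the other 3 low, so the split did not follow the groups. Its share of the gene was 8.19, 61.5 and 72.0% in the shock wave tumours, against 7.49, 1.31 and 68.8% in the controls (exact permutation p = 0.5). Without it ALDH3A2 had 2.54, 4.88 and 2.79 FPKM in the shock wave tumours, against 4.65, 8.50 and 3.56 FPKM in the controls, with overlapping groups and control tumour 2 the highest. Of the 8.50 FPKM in control tumour 2, 3.63 FPKM lay on the coding ENST00000630662. That transcript had 314 reads there and 0 in every other tumour.

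ALDH3A1, which oxidises aromatic and lipid-derived aldehydes, was low, and its sum over coding and noncoding transcripts was even. ALDH3A1 (ENSG00000108602, minus strand of chromosome 17, 19737984 to 19748433) had 3.37, 3.01 and 2.41 FPKM in the shock wave tumours, against 2.92, 2.62 and 2.33 FPKM in the controls. The log2 change was 0.11 with a standard error of 0.18 and a limma adjusted p of 0.821, and the groups overlapped. It was 0.03 with libraries scaled to the same sum and 0.29 with voom, and the groups were separate under voom and under quantile normalization (0.18). The values of its transcripts shifted from tumour to tumour beneath this even sum. Its coding transcripts in the table summed to 2.35, 2.53 and 1.28 FPKM in the shock wave tumours, against 1.98, 2.51 and 0.722 FPKM in the controls. The other transcripts held 30.2, 15.8 and 47.0% of the gene in the shock wave tumours, against 32.1, 4.4 and 69.1% in the controls. The leading transcript, ENST00000457500, held 13.7, 35.9 and 52.6% of the gene in the shock wave tumours, against 49.2, 7.14 and 0% in the controls. It had 49, 115 and 143 reads in the shock wave tumours, against 144, 20 and 0 in the controls. It overlaps ENST00000444455 on the genome, and how shared reads were placed is not given in the sources used here. Whether the transcripts themselves shifted was not tested.

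**Figure D2:**
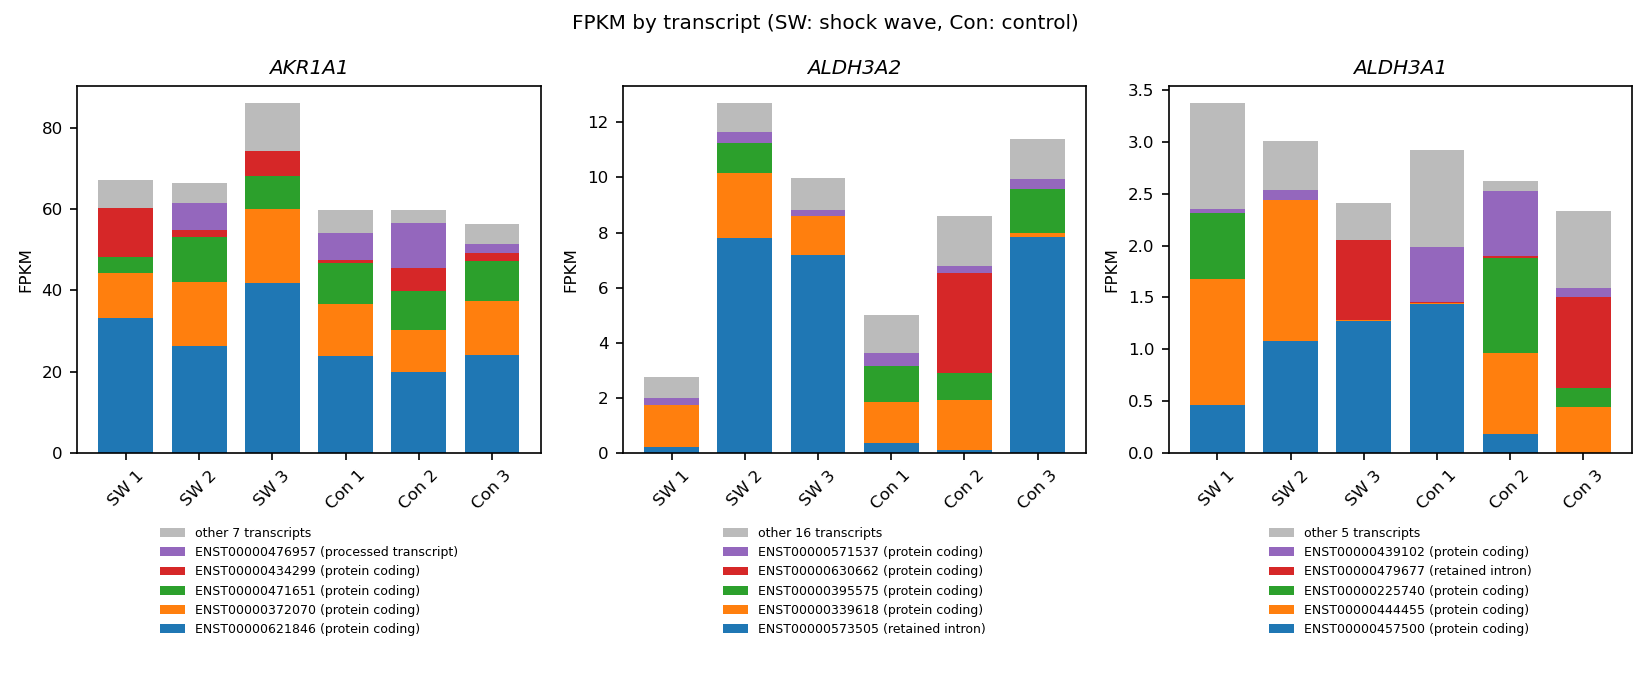
FPKM (y axis, starting at 0) of AKR1A1, ALDH3A2 and ALDH3A1 in each tumour, shock wave (SW) left of control (Con), stacked by transcript with the 5 most abundant named. The blue AKR1A1 transcript reaches 26.3 to 41.9 FPKM in shock wave and 19.9 to 24.3 FPKM in control tumours, and the blue ALDH3A2 transcript is high in SW 2, SW 3 and Con 3 and near 0 in the others.

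Over all transcripts of the set, 18 were tested, of which 0 passed an adjusted p of 0.05, against 0.203% of all 28517 transcripts (58). ENST00000621846 was the 1 with an unadjusted limma p under 0.05, against 6.58% of all transcripts. The groups did not overlap for 3 of the 18, all higher in shock wave tumours: the leading transcripts of AKR1A1, AKR1C3 and AKR1C1. Over all transcripts 6.87% did not overlap and were higher, and 7.34% did not overlap and were lower. The median log2 change of the 18 was 0.41, against -0.02 for all transcripts. AKR1A1 gave more of the 18 than any other gene, so its overlapping transcripts weigh on this median. By gene the median was 0.17, against -0.01 for all genes. For the leading transcript's share of each gene, the adjusted p over 8 genes was 0.8 or 1 by exact permutation tests. The smallest p these tests can give is 0.1, so none could have passed 0.05 and no conclusion is drawn from them.

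The uncertainty of the fitted changes differed widely between genes. The standard error ran from 0.14 for ALDH1A1 and AKR1A1 to 0.52 for ALDH3A2. For AKR1C3, the interval of 0.05 to 0.79 was the 1 interval in the set that did not include 0, before any adjustment. Over the 16 alternatives the log2 change ran from 0.18 to 0.37 for AKR1A1 and from 0.27 to 0.49 for AKR1C3. Groups that are separate stay so when a library is left out or the filter, pseudocount or variance model is altered, so those alternatives do not bear on the separation. In the scalings, the length correction and voom, where it could have been lost, both genes had separate groups. Scaling each library to the same sum of FPKM moved the median of all genes to -0.11, and on that scale AKR1A1 was at 0.19 and AKR1C3 at 0.31.

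**Figure D3:**
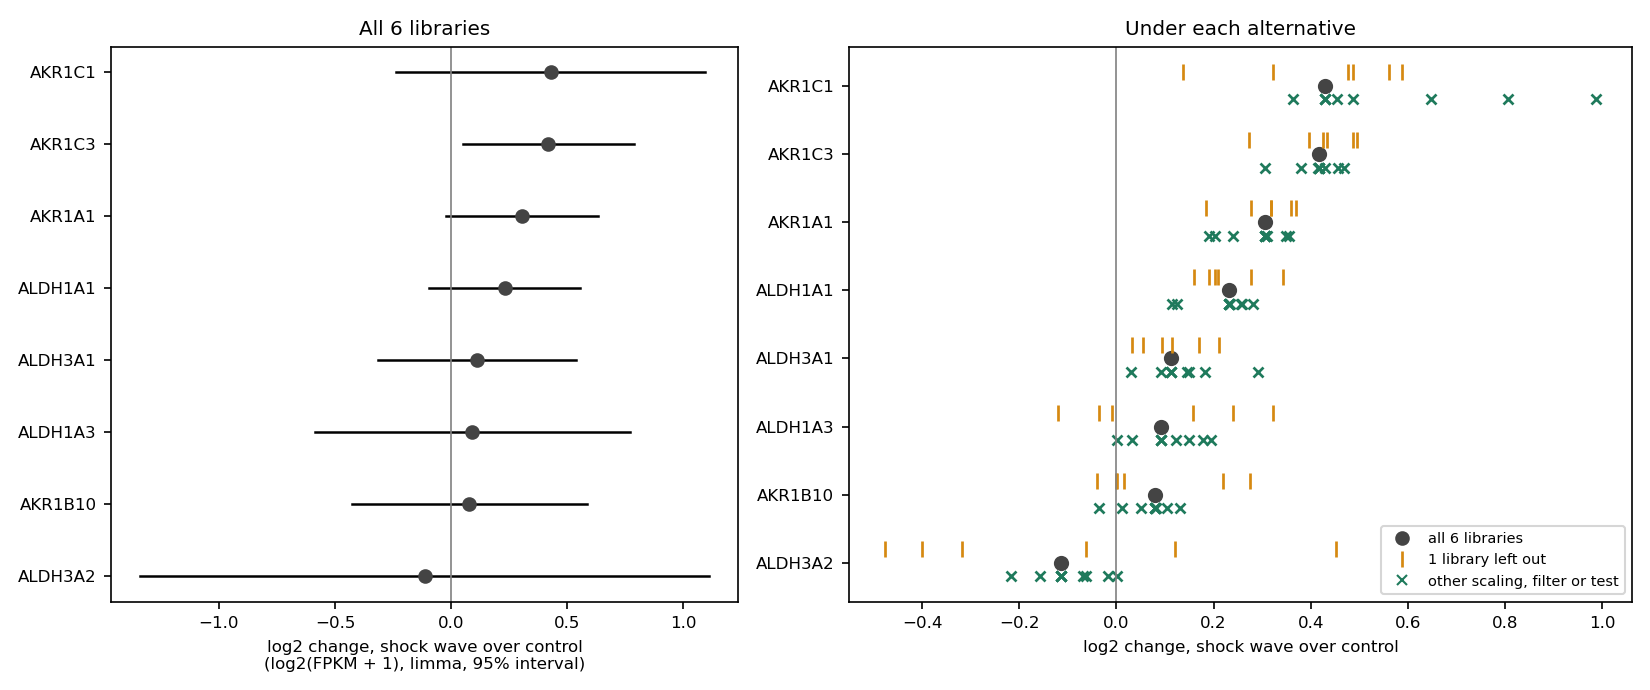
Log2 change of shock wave over control tumours for the 8 tested genes (x axis). Left: the limma estimate from all 6 tumours with its 95% interval. Right: the same estimate (dots), with 1 library left out (bars) and under another scaling, filter or test (crosses). Estimates of AKR1A1 stay between 0.18 and 0.37 and those of ALDH3A2 run from -0.48 to 0.45.

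Set against the other genes of both enzyme families, the 10 genes covered the whole range of levels. Of 33 family genes in the table, AKR7A2, a reductase of the succinic semialdehyde and aflatoxin type, ranked first at 80.9 FPKM over the 6 tumours, and ALDH1A1 ranked 2, AKR1A1 5, AKR1B10 6 and AKR1C3 7. ALDH3A2, ALDH3A1, ALDH1A3, AKR1C1 and AKR1C2 ranked 17, 18, 21, 22 and 24, and AKR1B1 33. The members held 48.0 to 50.7% of the FPKM of the aldo-keto reductase family in shock wave tumours and 42.1 to 45.8% in controls. They held 28.3 to 33.7% of the aldehyde dehydrogenase family in shock wave tumours and 26.8 to 33.1% in controls. The whole aldehyde dehydrogenase family summed to 307 ± 18.2 FPKM in shock wave and 286 ± 5.28 FPKM in control tumours. The lowest shock wave value, 292.8 in tumour 3, was just above the highest control at 291.8. Shock wave tumour 3 also had the largest summed FPKM of the 6 libraries. This family sum was not computed with libraries scaled to the same sum. No conclusion is drawn from the narrow separation. The aldo-keto reductase family summed to 317 ± 41.1 FPKM in shock wave (293.1 without tumour 3) and 295 ± 21.9 FPKM in control tumours, with overlap.

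**Figure D4:**
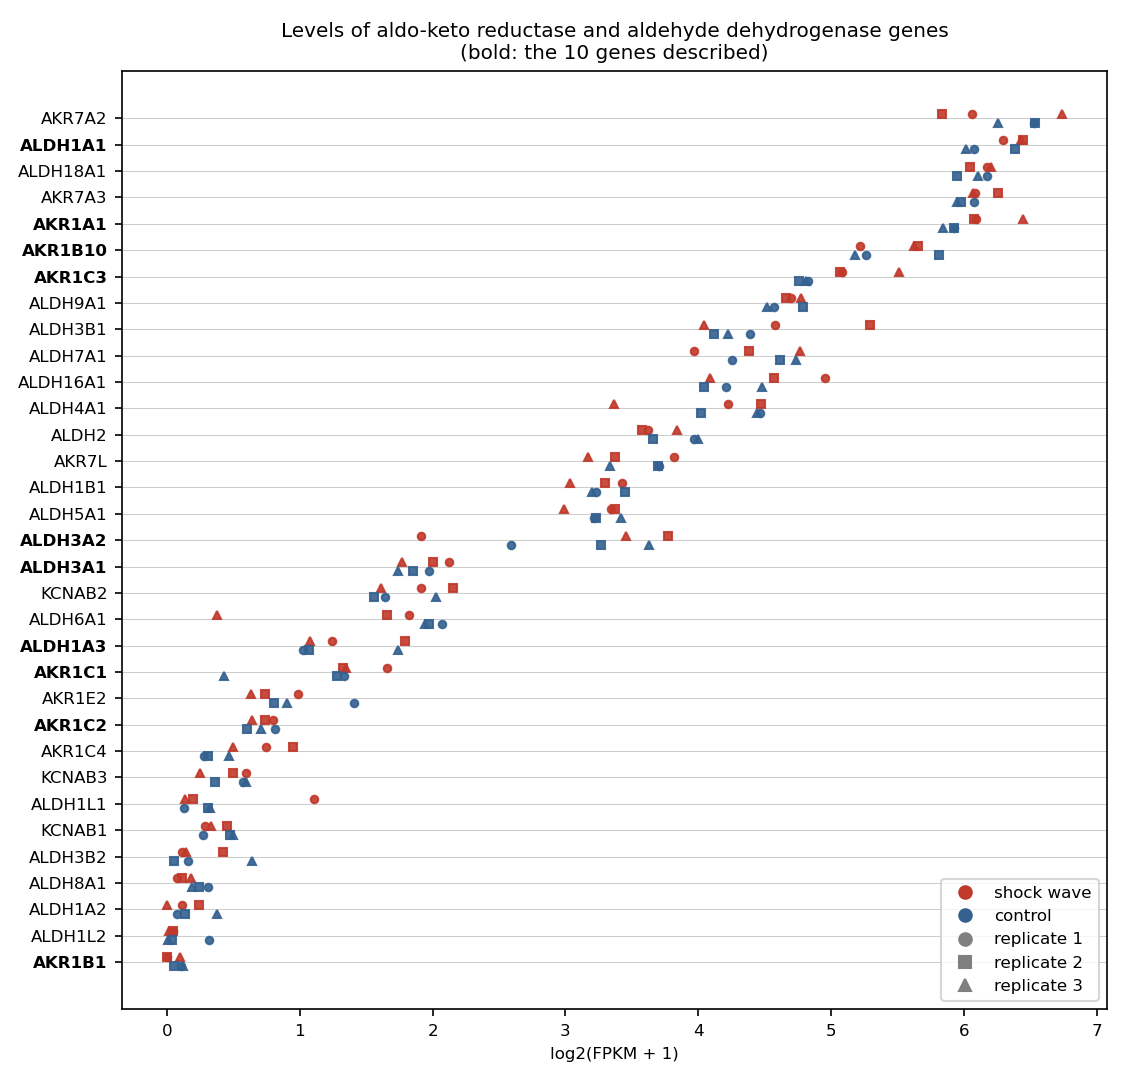
Level of the 33 aldo-keto reductase and aldehyde dehydrogenase genes in each tumour, as log2(FPKM + 1) on the x axis, ordered by mean, with shock wave tumours drawn above control tumours in each row. The 10 genes described (bold) range from ALDH1A1 in rank 2 to AKR1B1 in rank 33.

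Among the other tested genes of the families, 0 of 4 aldo-keto reductase and 0 of 10 aldehyde dehydrogenase genes passed. Their median log2 changes were 0.00 and -0.05. AKR7A2 averaged 75.8 ± 26.4 FPKM in shock wave and 86.0 ± 9.40 FPKM in control tumours, and AKR7A3 averaged 69.3 ± 5.16 FPKM in shock wave and 63.1 ± 3.03 FPKM in control tumours. For KCNAB2, a potassium channel subunit with an aldo-keto reductase fold, the means were 2.75 ± 0.696 FPKM in shock wave and 2.38 ± 0.607 FPKM in control tumours, and for AKR7L they were 10.2 ± 2.65 FPKM in shock wave and 11.03 ± 1.67 FPKM in control tumours. ALDH6A1, the methylmalonate semialdehyde dehydrogenase of valine breakdown, was the 1 gene of these 14 whose groups did not overlap. It averaged 1.67 ± 1.197 FPKM in shock wave and 2.99 ± 0.194 FPKM in control tumours, with a limma adjusted p of 0.648. Its values were 2.54, 2.16 and 0.302 FPKM in the shock wave tumours, against 3.21, 2.92 and 2.84 FPKM in the controls. Shock wave tumour 3 was by far the lowest, and the change without that tumour is not given here. ALDH2, the mitochondrial acetaldehyde dehydrogenase, averaged 11.8 ± 1.295 FPKM in shock wave and 13.8 ± 1.83 FPKM in control tumours. ALDH3B1 had 25.5 ± 11.6 FPKM in shock wave against 18.0 ± 1.82 FPKM in control tumours, and ALDH16A1 had 22.9 ± 6.97 FPKM in shock wave against 18.1 ± 2.95 FPKM in control tumours.

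Genes of the pathways in which these enzymes work did not pass either. Over the 7 lists of related genes, 135 entries held 86 tested genes, of which 0 passed with limma over all genes and 0 had an unadjusted p under 0.05. Of the 86, 52 had a positive log2 change, the median was 0.06, 6 did not overlap and were higher, and 3 did not overlap and were lower. Over all genes these shares were 7.75% and 8.68%. Among 10 alcohol dehydrogenases and carbonyl reductases the median log2 change was 0.19, with 8 positive. ADH5, the dehydrogenase of glutathione-bound formaldehyde, averaged 48.6 ± 0.967 FPKM in shock wave and 41.2 ± 2.89 FPKM in control tumours, with no overlap and a limma adjusted p of 0.648. DHRS2 averaged 3.03 ± 0.838 FPKM in shock wave and 2.10 ± 0.230 FPKM in control tumours. SORD, which takes the sorbitol made by aldose reductase on to fructose, averaged 21.8 ± 5.07 FPKM in shock wave and 25.0 ± 1.38 FPKM in control tumours, and CBR4, a mitochondrial carbonyl reductase, averaged 4.77 ± 1.40 FPKM in shock wave and 5.14 ± 0.539 FPKM in control tumours.

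In the retinoid list, 13 genes were tested, 10 with a positive log2 change and a median of 0.09. RDH14, a retinol dehydrogenase, averaged 16.99 ± 1.53 FPKM in shock wave and 13.7 ± 0.530 FPKM in control tumours, without overlap and with a limma adjusted p of 0.648. The retinoid X receptors varied widely within groups, RXRB with 12.8 ± 5.64 FPKM in shock wave and 7.69 ± 4.76 FPKM in control tumours, and RXRA with 10.2 ± 7.07 FPKM in shock wave and 18.7 ± 11.4 FPKM in control tumours. RETSAT, which saturates retinol, had 29.9, 32.1 and 23.4 FPKM in the shock wave tumours, against 28.1, 30.1 and 28.8 FPKM in the controls.

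Of the 7 tested prostaglandin genes the median log2 change was 0.09, with 5 positive and no separate groups. PTGES3, a co-chaperone that also acts as a prostaglandin E synthase, averaged 158 ± 35.2 FPKM in shock wave and 129 ± 5.14 FPKM in control tumours. PTGS2, the inducible cyclooxygenase, averaged 12.3 ± 2.98 FPKM in shock wave and 12.5 ± 2.44 FPKM in control tumours. The synthase PTGES averaged 2.13 ± 0.631 FPKM in shock wave and 1.79 ± 1.24 FPKM in control tumours, and the exporter ABCC4 averaged 6.17 ± 2.06 FPKM in shock wave and 7.43 ± 0.964 FPKM in control tumours.

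Of the 13 tested steroid genes, 9 had a positive log2 change, the median was 0.02, and 3 (23.1%) did not overlap and were higher, against 7.75% of all genes. SULT2B1, a cholesterol and steroid sulfotransferase, averaged 44.4 ± 2.87 FPKM in shock wave and 36.6 ± 4.93 FPKM in control tumours. HSD17B12 averaged 56.4 ± 2.51 FPKM in shock wave and 49.7 ± 3.39 FPKM in control tumours, and both had limma adjusted p near 0.65 (0.648 and 0.649). HSD17B7, a step of cholesterol synthesis, averaged 13.3 ± 0.613 FPKM in shock wave and 14.5 ± 1.63 FPKM in control tumours, and UGT2B15, which glucuronidates androgens, averaged 2.07 ± 0.685 FPKM in shock wave and 2.33 ± 0.931 FPKM in control tumours.

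The NRF2 list, which holds the regulators and other targets of the factor known to drive several AKR1 genes, was evenly divided. Of 30 tested genes 15 had a positive and 15 a negative log2 change, with a median of 0.01. The list mixes targets with regulators such as KEAP1 and BACH1, so this split gives no direction of NRF2 activity. TXN, thioredoxin, averaged 604 ± 127 FPKM in shock wave and 483 ± 28.9 FPKM in control tumours, and the groups did not overlap. Its log2 change of 0.30 was 0.14 without shock wave tumour 3 and 0.01 with quantile normalization, under which the groups overlapped. TXNRD1, the reductase that recharges thioredoxin, had 29.6, 43.1 and 22.5 FPKM in the shock wave tumours, against 43.4, 46.4 and 45.4 FPKM in the controls. Its 3 shock wave values were lower than the controls, with a log2 change of -0.54, a limma p of 0.0504 and an adjusted p of 0.648. HMOX1, haem oxygenase, averaged 4.48 ± 1.09 FPKM in shock wave and 3.39 ± 0.570 FPKM in control tumours, and MAFG, a DNA-binding partner of NRF2, averaged 18.4 ± 1.502 FPKM in shock wave and 22.3 ± 2.11 FPKM in control tumours.

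The genes most alike over the 6 tumours were found by the root mean square difference of centred log2(FPKM + 1) among 93 genes of the set and its lists. AKR1C3 was nearest to AKR1A1, at 0.075, and AKR1A1 was nearest to TXN, at 0.072. All 3 were highest in shock wave tumour 3. ALDH1A1 was nearest to ALDH9A1 (0.096), AKR1B10 to HSD17B11 (0.144), ALDH3A1 to OSGIN1 (0.099) and ALDH1A3 to KCNAB2 (0.135). AKR1C1 was nearest to CBR1 at 0.258, and ALDH3A2 had no close neighbour, with CBR4 nearest at 0.438. Across AKR1B10 and ALDH1A1 the difference was 0.147. These are descriptions over 6 tumours, and a difference between groups or in 1 library counts toward the likeness.

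Markers of epithelium were abundant and those of other cells mostly low, apart from LYZ and SERPINA1. Which cells the RNA of those 2 genes came from was not tested. The table is on the human genome, so cells of the host animal may not be counted by these markers. The 10 colorectal epithelium markers were all tested and summed to 5718 to 7951 FPKM in shock wave and 5166 to 6583 FPKM in control tumours, led by KRT8 at 2380 FPKM over the 6 tumours. Of these 10, 3 were higher and 1 lower without overlap, which is 40% against 16.4% of all genes. Without shock wave tumour 3 the mean sum of these markers was 5830 FPKM in shock wave tumours, against 5779 FPKM in controls. Fibroblast markers summed to 4.83 to 16.1 FPKM in shock wave and 11.2 to 26.7 FPKM in control tumours, led by COL1A1 at 8.51 FPKM, and 5 of the 8 in the table stayed under 1 FPKM in each tumour. Endothelium markers summed to 4.65 to 11.4 FPKM in shock wave and 2.17 to 6.74 FPKM in control tumours, nearly all of it ESAM, with 6 of 7 under 1 FPKM in each tumour. Macrophage and leukocyte markers summed to 1984 to 2086 FPKM in shock wave and 1846 to 2084 FPKM in control tumours, of which LYZ held 1970 FPKM, and 3 of the 7 in the table stayed under 1 FPKM in each tumour. Adipocyte markers summed to 4.37 to 7.13 FPKM in shock wave and 1.31 to 5.59 FPKM in control tumours, led by CIDEC at 4.44 FPKM. Hepatocyte markers summed to 268 to 646 FPKM in shock wave and 390 to 420 FPKM in control tumours, led by SERPINA1 at 400 FPKM. None of the listed markers in the table was at 0 in all 6 tumours, but some listed markers had no row. Of the 12 macrophage and leukocyte markers listed, 7 were in the table. In bulk tumours fewer cells of a type and less RNA per cell cannot be told apart, and the part of these markers in the values of the 10 genes was not tested.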

How the data were processed

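The authors deposited 1 table of expression per transcript for 6 samples, on hg38 per the submitters' processing notes. Its unit is not named there. The deposited values were taken as FPKM because multiplying by the transcript lengths of GENCODE release 29 gave whole reads, within 0.05, for 99.64 to 99.70% of values worth 0.5 to 100 reads. The sources used here do not name an aligner or counting program. How reads shared by overlapping transcripts of a gene were placed is therefore not known, which makes transcript values and shares uncertain. Groups came from the treatment labels. The titles of the shock wave samples also contain the letters con, and the treatment label was followed. No sample column was left unused.

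FPKM were summed per gene. Genes, or transcripts, with at least 1 FPKM in at least 3 samples were compared on log2(FPKM + 1) by limma 3.58.1 (R 4.3.3, mean-variance trend, no covariate), with Benjamini-Hochberg adjustment over all tested. Fold changes on that scale understate those of low genes. The gene test was tested on simulated data. In 20 runs it found 34.7% of the genes given a log2 change of 1 and 74.2% of those given 2. Changes as small as those of the set were not simulated. Genes, lists and tests were chosen with earlier results of these data known. Named were all 10 genes, the leading transcripts, transcripts with an unadjusted p under 0.05, and, per related list, the 2 genes with the smallest p in each direction. Alternatives were other scalings, filters, pseudocount and tests, voom on the recovered reads, a replicate block, removal of a length trend and each library left out.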

Additional observations from a re-analysis of the deposited data

How the results depend on the processing

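With limma, 0 genes of the set passed under all 16 alternatives, 0 of its transcripts under all 12 and 0 listed pathway genes under all 16. Over all genes the count of 0 (933 at an unadjusted p under 0.05) became 1 with voom on recovered reads and 0 to 5 with 1 library left out. Over all transcripts the count of 58 became 5 with no filter, 18 with a filter of 5 FPKM, 32 with a pseudocount of 0.1, 0 with voom, and 0 to 22 with 1 library left out. The count of genes of the set whose groups do not overlap, a count chosen after seeing the data, was 4 with quantile normalization or voom (16.2% and 16.1% of all genes), in place of 2, 3 with upper quartile scaling (16.6%) or the length trend removed (13.9%), and 3 with any 1 library left out (23.3 to 38.1%), where fewer samples make separation easier. Signs turned for AKR1B10 (-0.035 with equal sums, -0.04 to 0.276 with 1 library left out), ALDH3A2 (0.002 with voom, -0.477 to 0.453 with 1 library left out) and ALDH1A3 (-0.12 to 0.322 with 1 library left out). With 1 library left out the difference in leading transcript share ran from -0.0583 to 1.35 percentage points for AKR1C3, -15.7 to 12.9 for ALDH1A3 and -0.166 to 6.12 for AKR1C1, and AKR1C1 was at -1.04 on recovered reads. The causes were not tested. Deviations from the group means correlated at -0.012, -0.006 and 0.027 between same-numbered samples. Between samples of different number the correlations ran from -0.034 to 0.04. With 3 samples a group these values cannot settle whether the numbers pair the tumours. With the replicate number as a block 0 genes and 0 transcripts passed. ALDH3A1, ALDH1A3 and AKR1C1 fell under a filter of 5 FPKM and have no value there. The number of 3 tumours a group limits all of these results, and for AKR1B1, AKR1C2, ALDH3A1, ALDH1A3 and AKR1C1 the low read counts do as well.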
